A study of Homo sapiens with 9 samples.

Results

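The genes described here are 7 serine/threonine kinases of the PIM, SGK and PLK families, PIM1, PIM2, PIM3, SGK1, SGK3, PLK2 and PLK3. They were taken by symbol from a table of 30956 genes, and all 7 had a row and passed the filter on low values, a mean of at least 10 normalized counts. The table sets RNA co-purified with CCR4-NOT against input RNA in HEK293T, a human embryonic kidney cell line that carries the SV40 large T antigen. There were 3 RNA immunoprecipitation (RIP) libraries, recovered through V5-tagged CNOT7, a nuclease subunit whose D40A substitution impairs catalysis. They were set against input RNA: the labels list 3 input samples with doxycycline (3 µg/mL, kept on for 24 h) and 3 without it, and all cells grew in DMEM with serum. The table holds 3 input columns whose names fit both kinds, so their doxycycline status is not known here. The sources used here do not say whether the RIP cells received doxycycline or whether replicates were separate cultures, so p-values measure only the spread between these libraries, which may be technical. No immunoprecipitate without the tag was analysed here, so recovery by the beads or antibody alone was not subtracted.

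CCR4-NOT shortens the poly(A) tails of mRNAs, which starts their decay, and proteins bound to the 3′ untranslated region bring it to particular mRNAs. PIM kinases are active as soon as they are made, so their level is set largely by transcription, mRNA decay and protein turnover. SGK1 is induced by serum and glucocorticoids and PLK2 and PLK3 by growth factors and stress, and short-lived mRNAs are a known feature of such inducible kinases. SGK kinases act downstream of phosphoinositide 3-kinase, and PLK kinases recognise phosphorylated partners through a polo box.

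The 6 libraries held 37140622 to 40764899 reads in genes, and each member had between 51 and 7351 reads in every library. Pearson correlations of log2 values across 12370 genes, which are not independent replicates, were 0.92 to 0.98 between RIP libraries and 0.98 between inputs. RIP replicate 2 stood apart, with 14786 genes at 0 reads against 6720 and 6398 in the other RIP libraries and 10056 to 12079 in the inputs. Mitochondrially encoded RNA made up 0.931% to 1.12% of reads in RIP and 18.6% to 26.6% in input, and total-count scaling raised the median log2 fold of all genes by 0.49. All 6 HEK293T markers were detected in every library, with summed levels of 12750 to 14434 normalized counts in RIP and 31432 to 35210 in input, most of it VIM. Without VIM the sums were 2932 to 3500.1 in RIP and 3758 to 3875 in input. By limma 2 of the 6, PAX2 and LHX1, were higher in RIP, and VIM, NEFM and KRT18 were lower. Of 8 markers of other cell types, the leukocyte, T cell and beta cell markers PTPRC, CD3E and INS had no row here, and ALB and PECAM1 stayed at 10.8 normalized counts or less. The muscle factor MYOD1 was higher, at 200.4 to 266 normalized counts in RIP and 48.0 to 105 in input (log2 fold 1.74, limma adjusted p = 0.0069). COL1A1 had -0.26 and EPCAM, with 0 to 35.3 in RIP and 61.7 to 98.1 in input, -2.95, and neither passed. The summed level of the list was 578 to 802 in RIP and 498 to 736 in input. The part of these markers in the members' values was not tested. In bulk RNA, fewer cells of a type and less RNA per cell cannot be told apart. RIP over input compares recovered RNA with input RNA, so marker differences were not read as differences in cell numbers.

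The only member sequences used here are the 250 bases before each annotated start, which describe transcription and not the mRNA that was recovered. They are shown because all RIP libraries lay above the 3 input columns for 6 members and not for PIM2. The windows let PIM2 be set beside the others that have one, and a link between these sequences and recovery was not tested. RefSeq windows (GRCh38.p14) of 6 members were used, 3 of them for SGK1, and none was used here for SGK3. The last 100 bases before the start are printed 5′ to 3′ on the gene's strand, with capitals for the GC box GGGCGG, the TATA motif TATAA and the cyclic AMP element half-site TGACG, each on either strand. The motifs were chosen after these sequences had been displayed.
PIM1 (chr6:37170052-37170151, plus strand): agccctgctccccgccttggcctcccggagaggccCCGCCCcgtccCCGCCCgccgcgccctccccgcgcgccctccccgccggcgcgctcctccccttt
PIM2 (chrX:48919025-48919124, minus strand): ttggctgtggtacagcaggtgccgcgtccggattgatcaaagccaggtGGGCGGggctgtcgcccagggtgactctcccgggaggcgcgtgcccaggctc
PIM3 (chr22:49960672-49960771, plus strand): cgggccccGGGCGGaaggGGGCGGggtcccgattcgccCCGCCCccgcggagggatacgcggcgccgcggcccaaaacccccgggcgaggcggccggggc
SGK1, most downstream start (chr6:134174867-134174966, minus strand): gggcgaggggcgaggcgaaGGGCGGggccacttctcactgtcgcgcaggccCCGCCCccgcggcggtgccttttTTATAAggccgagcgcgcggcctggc
PLK2 (chr5:58460087-58460186, minus strand): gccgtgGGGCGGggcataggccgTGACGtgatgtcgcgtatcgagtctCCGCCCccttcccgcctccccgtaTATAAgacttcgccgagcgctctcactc
PLK3 (chr1:44800277-44800376, plus strand): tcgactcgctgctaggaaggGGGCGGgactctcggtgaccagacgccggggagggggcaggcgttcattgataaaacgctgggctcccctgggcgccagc

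The GC box, bound by SP-family factors, was found in 6 of the 8 member windows, at least 1 for each of the 6 genes, and in 42.6% of 35116 promoter windows of the same length. The other SGK1 windows lacked it. TATAA was found in 4 of the 8 member windows, every SGK1 window and that of PLK2, against 18.9% of all windows. In the printed SGK1 window it overlaps its own reverse complement. TGACG was found for PLK2 alone among the 6 genes (21.2% of all windows) and the CCAAT box CCAAT for PIM2 alone (32.0% of all windows), reaching 1 base beyond the printed part and so left in lower case. A p53 half-site was found for PLK2 alone, also upstream of the printed part, and in 5.57% of all windows. The STAT motif TTCNNNGAA was in none of the 8 member windows and in 6.57% of all windows. PIM2 carried the GC box, as did the other 5 genes. These matches describe letters in a window, not bound sites.

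The members lie on 6 chromosomes, with coordinates here from RefSeq on GRCh38.p14. PIM1 (ENSG00000137193) is on chromosome 6 at 37170152 to 37175428 and SGK1 (ENSG00000118515) on the same chromosome at 134169256 to 134318112. PIM2 (ENSG00000102096) is on chromosome X at 48913182 to 48919024, and PIM3 (ENSG00000198355) on chromosome 22 at 49960772 to 49964072. PLK2 (ENSG00000145632) is on chromosome 5 at 58453982 to 58460086, and PLK3 (ENSG00000173846) on chromosome 1 at 44800377 to 44805990. SGK3 (ENSG00000104205) is on chromosome 8 at 66712781 to 66862022 and shares its locus with the readthrough gene C8orf44-SGK3 and the pseudogene PTTG3P. PTTG3P has a row of its own, with means of 0.813 normalized counts in RIP and 3.70 in input. PLK3 overlaps DYNLT4, PIM3 the microRNA gene MIR6821, and SGK1 the entries LOC124901531, RPS29P32, RNA5SP218 and KRT8P42. The strand setting of the counting is not stated in the labels or headers, so how reads in stretches shared with the other overlapping genes were assigned is not known here.

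Recovery with CCR4-NOT was compared by limma on log2(normalized count + 1), with p-values adjusted by Benjamini-Hochberg over 16765 genes and a threshold of 0.05. PIM1, PIM3, SGK1, SGK3 and PLK2 rose in RIP over input by about 2 to 5 fold, PLK3 narrowly missed the threshold, and PIM2 stood level. Thus 5 of 7 members were called higher and 0 lower, against 22.4% of all tested genes called higher and 21.2% called lower. The authors' deposited table called 6 of 7 higher and 0 lower, against 20.6% and 19.9% of its 20649 tested genes. The median log2 fold of the members was 1.53, and that of all tested genes was -0.043. All RIP libraries lay above all 3 input columns for 6 of 7 members and below them for 0, against 27.4% and 27.3% of all tested genes. The remaining 3 inputs have no columns and are not part of this count.

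**Figure D1:**
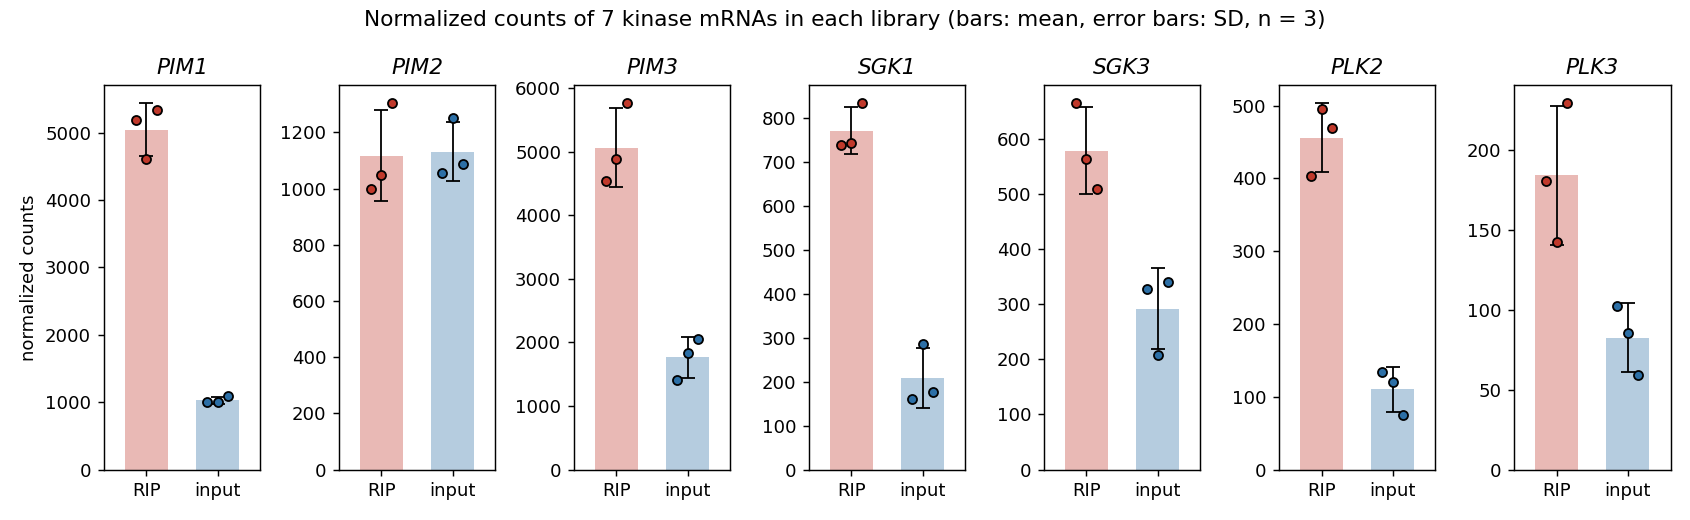
Normalized counts (linear axis from 0, own scale per gene) of the 7 mRNAs in each RIP library (red, left) and each of the 3 input columns (blue, right), with bars for the mean and error bars for the SD (n = 3 each). The groups do not overlap for 6 genes, with the smallest gap at PLK3, and overlap for PIM2.

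PIM1, a proto-oncogene kinase that promotes survival and cell cycle entry, had 5191, 4603 and 5342 normalized counts in the RIP libraries, against 997, 1003 and 1092 in the inputs. Every RIP library was at least 4.22 times as high as the highest input, and the spread within each group was small. The means were 5045 ± 390.4 in RIP and 1030.4 ± 53.2 in input (SD, n = 3 each). The log2 fold was 2.29 (SE 0.13), with a limma adjusted p of 3.5e-07, which placed 2.96% of all tested genes above PIM1.

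PIM3, a paralog that shares most substrates with PIM1, had 4546, 4890.3 and 5762 normalized counts in RIP, against 1411, 1836 and 2053 in input. The groups did not overlap, although the lowest RIP library was only 2.21 times the highest input. Means of 5066 ± 627 in RIP and 1767 ± 327 in input (SD, n = 3 each) gave a log2 fold of 1.53 (SE 0.16, limma adjusted p = 1.26e-05).

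PIM2, the third paralog and best known in blood cells, had 999, 1049 and 1304 normalized counts in RIP, against 1056, 1250.4 and 1087 in input. The groups overlapped, and all inputs lay within the range of the RIP libraries. Its log2 fold was -0.024 (SE 0.17, limma adjusted p = 0.925), and the 95% interval ran from -0.39 to 0.34, or 0.763 to 1.27 fold. The interval leaves out the fold of PIM1 and of PIM3, and 49.3% of all tested genes had a higher fold than PIM2. Under total-count scaling PIM2 had 0.47 and passed the threshold (limma adjusted p = 0.0451), while the median of all genes stood at 0.45.

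**Figure D2:**
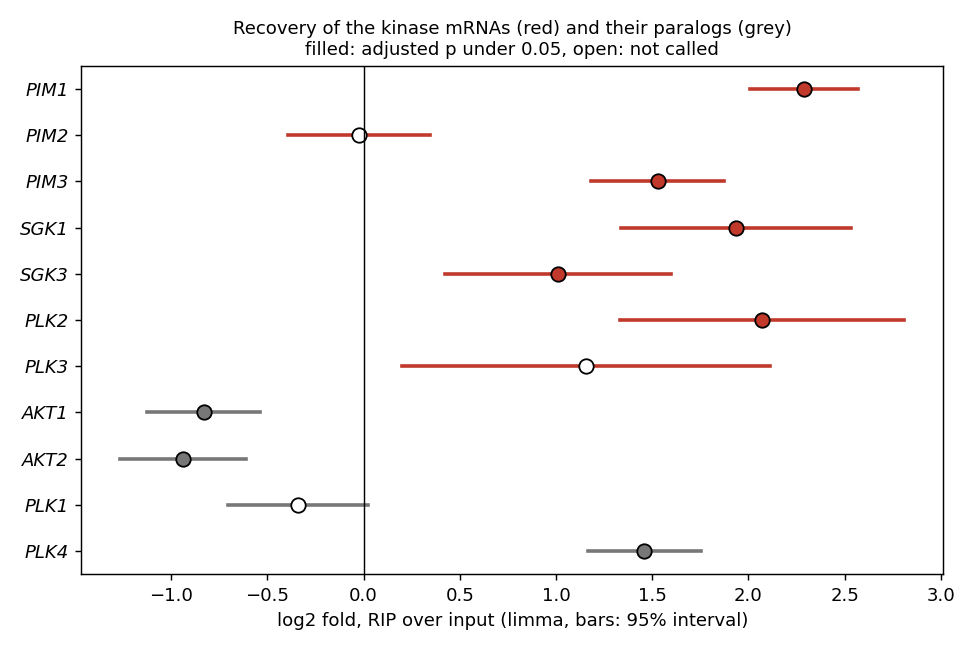
Log2 fold of RIP over input from limma, with 95% intervals, for the 7 members (red) and 4 paralogs (grey); filled points have an adjusted p under 0.05. PIM2 and PLK3 are the open red points, at -0.024 and 1.16, and only PLK4 among these paralogs lies among the members that rose.

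SGK1, which regulates ion channels and cell survival, had 737, 741 and 833 normalized counts in RIP, against 160, 285 and 177 in input. RIP libraries were close together, whereas input replicate 2 lay well above the other inputs. Means were 770.3 ± 53.9 in RIP and 207 ± 68.2 in input (SD, n = 3 each). The log2 fold was 1.93 (SE 0.27, limma adjusted p = 0.000125).

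SGK3, which is held at endosomes by a phosphoinositide-binding domain, had 664, 563 and 508 normalized counts in RIP, against 327, 208 and 341 in input. All RIP libraries lay above the inputs, by as little as 1.49 times between the nearest libraries. Its log2 fold of 1.01 (SE 0.27, limma adjusted p = 0.00888) was the lowest among the called members.

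PLK2, a stress- and activity-induced kinase of centriole duplication and synapses, had 403, 495 and 470 normalized counts in RIP, against 135, 121 and 75.6 in input. The lowest RIP library was 2.99 times the highest input. Means of 456 ± 47.3 in RIP and 110.4 ± 30.9 in input (SD, n = 3 each) gave a log2 fold of 2.07 (SE 0.34, limma adjusted p = 0.000341).

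PLK3, which responds to DNA damage and other stress, had 181, 142 and 229 normalized counts in RIP, against 102, 85.6 and 59.3 in input. These values rest on the fewest reads of any member, from 191 to 292 in RIP and 51 to 98 in input. A count of 51 has an exact 95% Poisson interval of 38.0 to 67.1, for counting error only. The RIP libraries and the 3 input columns did not overlap, with the lowest RIP library at 1.39 times the highest of these inputs. The log2 fold of 1.16 (SE 0.44) had a limma adjusted p of 0.05002, and 0.00269 in the authors' deposited table. Over 17 alternatives with a test, the adjusted p ranged from 0.00269 to 0.19 and passed in 7, among them limma without RIP replicate 2 (log2 fold 1.33, adjusted p = 0.0101).

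Ratios between members within a library compare paralogs without any scaling between libraries. For 5 pairs, a two-sided exact permutation test over 3 against 3 libraries cannot go below 0.1, and adjusted over the pairs it cannot reach 0.05. The log2 ratio of PIM1 to PIM2 was 2.38, 2.13 and 2.03 in RIP, against -0.084, -0.32 and 0.0062 in input. All RIP ratios lay above all input ratios, by well over the spread within either group. The difference of 2.31 had p = 0.1 (exact permutation, 0.125 adjusted).

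PIM3 to PIM2 differed in the same direction, with log2 ratios of 2.18, 2.22 and 2.14 in RIP and 0.42, 0.55 and 0.92 in input. That difference was 1.55 (exact permutation p = 0.1, 0.125 adjusted). PIM1 to PIM3 shifted less, by 0.76, with a mean log2 ratio of -0.0018 ± 0.17 in RIP and -0.76 ± 0.23 in input (SD, n = 3 each, exact permutation p = 0.1, 0.125 adjusted). Libraries of the 2 groups did not overlap for any of the 3 PIM pairs.

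The log2 ratio of PLK2 to PLK3 was 1.33 ± 0.41 in RIP and 0.41 ± 0.076 in input (SD, n = 3 each), a difference of 0.92 with no overlap (exact permutation p = 0.1, 0.125 adjusted). SGK1 to SGK3 differed by 0.92 too, but its ratios overlapped, at 0.42 ± 0.28 in RIP and -0.50 ± 0.83 in input (SD, n = 3 each, exact permutation p = 0.3). Input replicate 2, at 0.46, lay among the RIP libraries, and without single libraries the difference ran from 0.66, without input replicate 1, to 1.41, without input replicate 2.

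**Figure D3:**
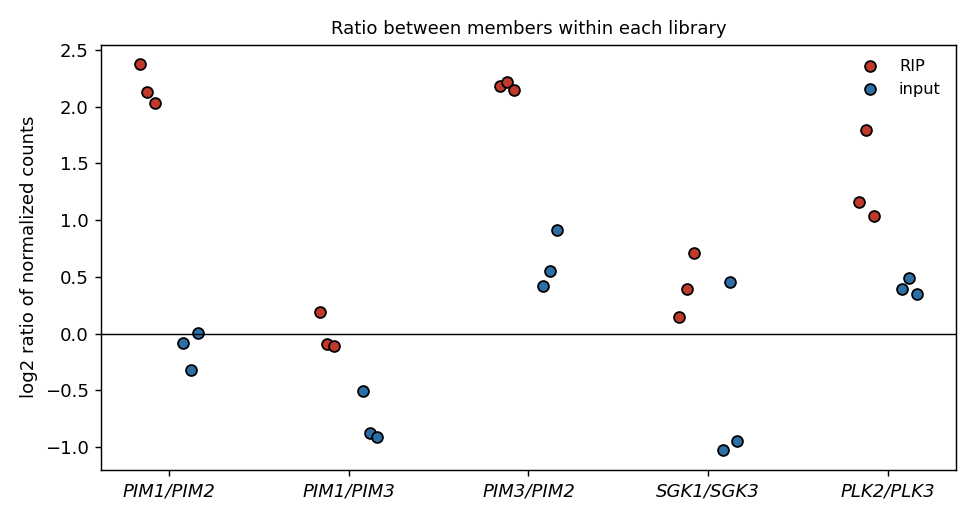
Log2 ratio of normalized counts between paired members within each library, RIP in red and input in blue. RIP libraries lie above input libraries for every pair except SGK1/SGK3, where 1 input library falls among them.

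The closest relatives of the members were recovered unevenly. PLK4, the master kinase of centriole duplication, rose, with 7997 ± 813 normalized counts in RIP and 2914 ± 399.9 in input (SD, n = 3 each), a log2 fold of 1.46 (limma adjusted p = 5.7e-06). PLK1, the mitotic polo-like kinase, had -0.34 (limma adjusted p = 0.12), which became -0.46 and -0.53 and passed without RIP replicate 3 or input replicate 1, and 0.15 under total-count scaling. The SGK relatives AKT1 and AKT2, central kinases of growth factor signalling, fell in RIP, with log2 folds of -0.83 and -0.94 (limma adjusted p = 0.000317 and 0.000292). AKT1 missed the threshold under total-count scaling, at -0.34 (adjusted p = 0.0561). SGK2 and PLK5 were under the mean of 10 that the limma fit required, at 27.1 and 18.8 normalized counts or less in any library. The authors' deposited table gives adjusted p-values of 0.262 for SGK2 and 0.978 for PLK5.

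Among 269 tested genes of a list of other protein kinases, which includes the AKT and PLK relatives, 103 rose and 44 fell, or 38.3% and 16.4%. The median log2 fold of the list was 0.21, with -0.043 for all tested genes. PIM1 had a fold above all but 1 of these kinases, SIK1, whose 2.46 rests on 38.0 normalized counts in RIP and 3.17 in input and was not called (limma adjusted p = 0.36, named after its values were seen), and SGK1 and PLK2 above all but 3. SGK3 was exceeded by 24 and PIM2 by 170. The called kinases with the largest folds on the list were NUAK2, a stress kinase of the AMPK family, at 2.08, the pseudokinase TRIB1 at 2.07, BRSK1 at 1.68, the Hippo pathway kinase LATS2 at 1.64 and the splicing regulator CLK1 at 1.57. The lowest were CDK5 at -1.77, the protein kinase A subunit PRKACA at -1.64, the receptor TYRO3 at -1.54, the MAP kinase MAPK3 at -1.37 and MAPKAPK3 at -1.32.

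**Figure D4:**
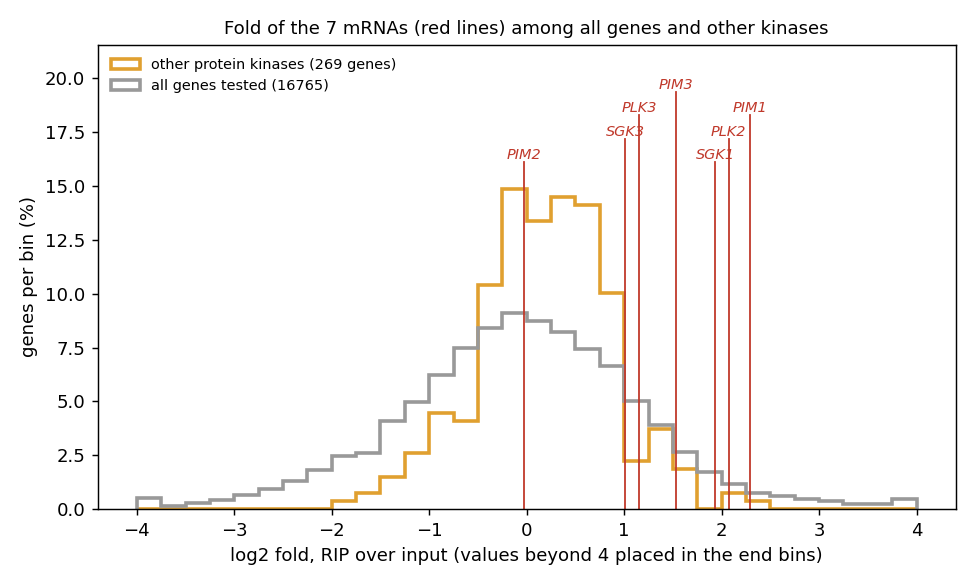
Share of genes per bin of log2 fold (RIP over input) for 269 other protein kinases (orange) and all 16765 tested genes (grey), with a red line at each member. PIM2 lies near the centre of both distributions, and the other 6 members lie at 1.01 or above.

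Genes that act with the members are read here against the 22.4% of all tested genes called higher and 21.2% called lower. Of 18 tested genes around PIM signalling, its inducers and substrates, 7 rose and 4 fell (38.9% and 22.2%), with a median log2 fold of 0.096, so the share that fell was near that of all genes. The PIM substrate CDKN1B, an inhibitor of cyclin-dependent kinases, had 6649 ± 1233 normalized counts in RIP and 1299 ± 57.6 in input (SD, n = 3 each), a log2 fold of 2.34 (limma adjusted p = 6.98e-07). The chemokine receptor CXCR4 followed at 1.53. The apoptosis factor BAD and the translation inhibitor EIF4EBP1, both inactivated by phosphorylation, had the lowest folds, -1.97 and -1.88.

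Of 17 tested genes around SGK signalling 8 rose and 4 fell (47.1% and 23.5%), with a median log2 fold of 0.28, and again the share that fell was near that of all genes. FOXO1, a transcription factor that SGK and AKT kinases keep out of the nucleus, and NR3C1, the glucocorticoid receptor that induces SGK1, rose by 1.44 and 1.16. MLST8 and MAPKAP1, subunits of the mTORC2 complex that activates SGK kinases, fell by 1.18 and 0.90 on the log2 scale. The mTORC2 subunits on the list did not move together. RICTOR rose by 0.94 (limma adjusted p = 0.00146) and MTOR fell by 0.53 (limma adjusted p = 0.00149), both named after their values were seen.

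Of 23 tested genes around PLK2, PLK3 and centriole control 6 rose and 5 fell (26.1% and 21.7%), with a median log2 fold of -0.094, both shares near those of all genes. JUN, an AP-1 factor, and BORA, an activator of PLK1, rose by 2.10 and 0.83. CIB1, a calcium-binding partner of PLK3, had -3.15, or -1.74 without RIP replicate 2, in which it had 11.2 normalized counts against 181 and 285 in the other RIP libraries. Its call was lost in DESeq2 on recovered reads (-2.29, adjusted p = 0.0656) and held in edgeR (-2.25, adjusted p = 0.0221). NPM1, a nucleolar protein and PLK2 substrate, had -1.32. Total-count scaling left 2 of the SGK list and 2 of the PLK list as lower.

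Profiles most like each member were found by Euclidean distance of centred log2 values over 6 libraries, among 11556 genes with a mean of at least 100. PIM1 was nearest to WNT3 and CNEP1R1 (distances 0.194 and 0.196), PIM3 to ZNF691 and KCNJ8 (0.145 and 0.148) and PIM2 to SHQ1 and PYM1 (0.0732 and 0.0846). SGK1 was near to ZNF337 (0.391) and SGK3 to ZBTB16 and TRAF5 (0.13 and 0.201). PLK2 was nearest to ZNF41 and INSM1 (0.344 and 0.349), and PLK3 to KLLN and ASTE1 (0.154 and 0.301). KLLN, at a log2 fold of 1.13, stood as near the threshold as PLK3 (limma adjusted p = 0.0496). The likeness covers the shared difference between groups as well as the scatter within them.

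The authors' mean over 9 libraries also gives, by subtraction, the mean of the remaining 3 inputs, without an SD. PIM1 stood at 1082 there, next to 1030.4 in the input columns, and PLK2 at 137 next to 110.4. PIM3 had 2298 in the remaining inputs and 1767 in the input columns. These members lay below their RIP means of 5045, 456 and 5066 in both sets of inputs.

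Other members differed more between the sets of inputs. SGK1 had 100.1 in the remaining inputs and 207 in the input columns, SGK3 had 163 and 292, and PIM2 had 799 and 1131. PLK3 went the other way, with 252 in the remaining inputs and 82.4 in the input columns. Its RIP mean of 184 therefore lay above the input columns and below the remaining inputs, with a log2 ratio of -0.45 to the remaining inputs. The bait's own mRNA, CNOT7, differed between the sets as well, at 4240.0 and 24800 normalized counts, with 86982 in RIP. With no libraries behind the derived means, these differences were not tested.

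**Figure D5:**
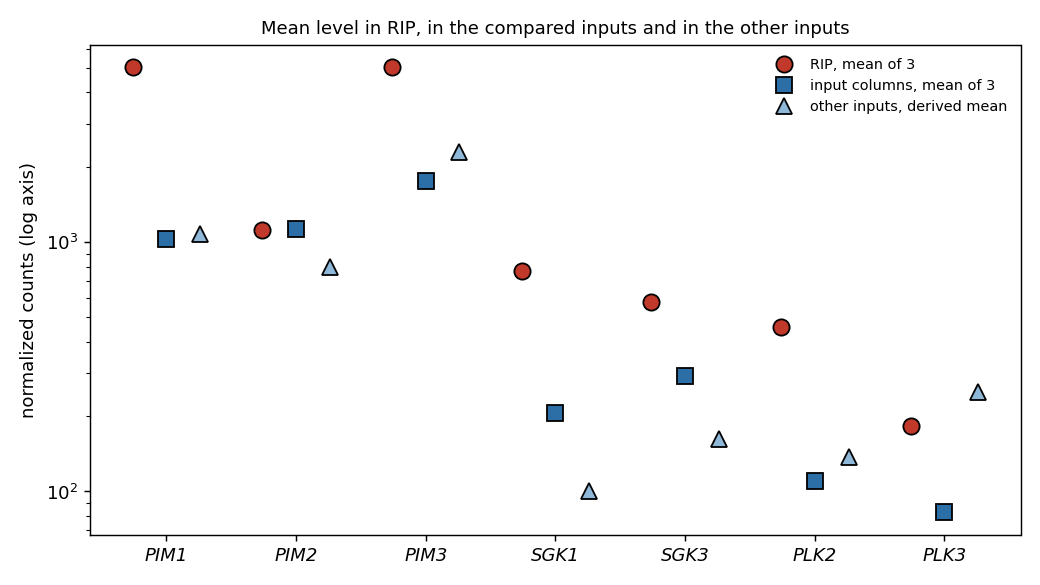
Mean normalized counts (log axis) of each member in RIP (circles), in the 3 input columns (squares) and in the remaining 3 inputs, derived by subtraction (triangles, no error available). The RIP mean lies above both sets of inputs for PIM1, PIM3, SGK1, SGK3 and PLK2, and between them for PIM2 and PLK3.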

How the data were processed

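HEK293T cytoplasmic RNA, depleted of ribosomal RNA, was read as single ends of 75 bp, per the labels' protocols. STAR, featureCounts and DESeq2 with build GRCh38 are named, without versions, per the submitters' processing notes. No source used here gives the annotation, the strand setting or a filter. The authors deposited a signal per gene and library, gene counts divided by 1 size factor per library. Dividing each column by its step gave whole reads for 100% of the values, at a tolerance of 0.01. The log2 fold, its SE, a shrunken log2 fold and the adjusted p-value were also deposited by the authors (DESeq2, per the file headers), with an adjusted p for 20649 genes.

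The main test was limma 3.58.1 (R 4.3.3) with trended variance on log2(value + 1). It used the 3 RIP and 3 input columns and genes with a mean of at least 10. Its code was checked on simulated counts with known folds, the same dispersion for every gene and few changed genes. Here 43.6% of tested genes were called, so the simulation does not show how the test behaves on these data. The added 1 draws the folds of low genes towards 0, and a mean of log values weighs a single low library, as for CIB1, more than a count model does. edgeR 4.0.16 (3714 genes higher, 3435 lower) and DESeq2 1.42.0 on recovered reads were alternatives. Input columns were matched to the group of 6 inputs, not to single samples. Members, gene lists and tests were chosen with earlier results of these data known. Besides the members and their paralogs, the text names the 2 highest and 2 lowest called genes of each pathway list, 5 and 5 of the other kinases, and the 2 nearest profiles per member. Some genes under this rule are not reported here. Other gene names (markers, the bait, overlapping genes, SIK1, RICTOR and MTOR) serve as checks. Levels are not compared between genes, since transcript lengths were not used here.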

Additional observations from a re-analysis of the deposited data

How the results depend on the processing

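PIM1, PIM3, SGK1, SGK3 and PLK2 were called higher in RIP in all 17 alternatives with a test (limma settings, the replicate block, edgeR, DESeq2 and the authors' deposited table), and their lowest log2 folds were 2.25 for PIM1, 1.77 for SGK1, 0.78 for SGK3 and 1.82 for PLK2. With all 6 inputs as 1 group SGK1 had 2.32, SGK3 1.34, PLK3 0.14 and PIM2 0.21. PIM2 turned to 0.47 under total-count scaling, 0.11 under total counts without mitochondrially encoded genes and 0.019 under TMM, and ranged from -0.14 to 0.052 without single libraries. PLK3 passed at a pseudocount of 5 (1.12), a mean of at least 100 (1.16), total-count scaling (1.65), total counts without mitochondrially encoded genes (1.29), TMM (1.20) and in the authors' deposited table (1.16). Without single libraries PLK3 ranged from 0.94 to 1.33, and passed only without RIP replicate 2. Total-count scaling gave 6142 genes higher and 1651 lower, against 3758 and 3550, so that 78.8% of calls were higher, not 51.4%. Total counts without mitochondrially encoded genes gave 59.7%. Total-count scaling also gave 173 other kinases higher and 16 lower, and 2 genes lower in each of the SGK and PLK lists. With the column numbers as a replicate block, 4053 genes were higher and 3925 lower, no member's call changed (PLK3 adjusted p = 0.0734), and PLK1 passed (-0.34, adjusted p = 0.0157). No input column is tied to a sample, so the numbers were not taken to pair the libraries. Deviations of same-numbered columns correlated at 0.255, 0.0025 and 0.239 (Pearson r, 12370 genes). Those of RIP replicate 3 with input replicate 1 and RIP replicate 1 with input replicate 3 had -0.265 and -0.226. The other differently numbered columns lay between -0.029 and 0.026. Whether the numbers mark pairs was not tested. Paralog differences kept their direction at every pseudocount and without any single library. PLK3 had the fewest reads of the members, and the 3 libraries per group limit every p. The cause of these changes was not tested.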
